A study of Drosophila melanogaster with 2 samples.

Results

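Divergent promoters, where 2 protein-coding genes start back to back on opposite strands, held 699 of the 2330 autosomal peaks (30.0%) of the tagged protein CG8478 in fly embryos. The pairs were neighbouring protein-coding genes of Ensembl's annotation with the minus-strand gene on the left, the plus-strand gene on the right and gene starts at most 500 bp apart. A peak was kept when its summit lay within 500 bp of either start, so distances to the starts are limited by the choice. The whole list, made from both replicates, has 2934 distinct intervals. Genes that share a start were named together with a plus sign, which turned 1531 gene pairs into 1439 distinct pairs of starts. Of the other autosomal peaks, 1090 lay within 500 bp of a protein-coding start outside such pairs (single promoters below) and 541 at neither.

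The data come from ChIP-seq with an antibody against GFP on transgenic flies that make a CG8478-eGFP fusion protein. Whole embryos aged 0 to 24 h were used, in 1 group of 2 biological replicates, and chromatin was sonicated to 200 to 800 bp. There is no second group. Whole embryos pool all cell types and stages, the fusion protein is made from an insertion, and the control alignment named in the deposited notes was not analysed here. The deposited lists hold no read counts, so read depth is unknown, and the intervals given below are 95% Wilson intervals for the counting error of genes, pairs or peaks.

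In flies, genes of general cell functions are often arranged as divergent pairs with closely spaced starts. Many such promoters carry the DNA replication-related element (DRE), bound by the transcription factor DREF, and the boundary protein BEAF-32 binds short sequences that overlap it. DRE promoters are typical of genes active in most cells, whereas TATA boxes and GAGA repeats are typical of regulated genes.

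The 100 bp on either side of 6 summits are shown because they are the highest divergent-promoter peaks with the DRE core TATCGATA, the first 4, and the highest without it, the last 2, outside 1 chromosome arm that is not printed. Capitals mark the DRE core and the short core CGATA on either strand. Each DRE core holds 2 short cores, since it reads the same on both strands. All are the plus strand of genome build dm6, read from the Release 6 sequence, with the summit as the middle base. The windows are chr3R:10761039-10761239 for MED7/Cap-H2, chr2L:7032565-7032765 for Rab30/Caper, chr3L:19818027-19818227 for Fibp/Deaf1, chr3L:8525116-8525316 for GstO1/foi, chr3R:30046132-30046332 for RpL32/CG7943 and chr2L:6480782-6480982 for Sec61alpha/Daxx. In each name the minus-strand gene comes first.
MED7/Cap-H2: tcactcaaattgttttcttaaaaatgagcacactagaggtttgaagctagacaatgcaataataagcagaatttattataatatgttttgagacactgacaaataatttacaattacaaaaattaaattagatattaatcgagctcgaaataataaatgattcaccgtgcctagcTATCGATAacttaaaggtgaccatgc
Rab30/Caper: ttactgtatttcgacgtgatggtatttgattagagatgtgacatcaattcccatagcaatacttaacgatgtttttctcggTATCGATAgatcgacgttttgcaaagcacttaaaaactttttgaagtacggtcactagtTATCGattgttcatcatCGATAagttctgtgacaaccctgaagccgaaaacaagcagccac
Fibp/Deaf1: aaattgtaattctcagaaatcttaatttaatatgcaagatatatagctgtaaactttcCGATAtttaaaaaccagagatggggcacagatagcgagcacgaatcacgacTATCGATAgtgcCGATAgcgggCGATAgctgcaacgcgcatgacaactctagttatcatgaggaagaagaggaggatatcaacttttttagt
GstO1/foi: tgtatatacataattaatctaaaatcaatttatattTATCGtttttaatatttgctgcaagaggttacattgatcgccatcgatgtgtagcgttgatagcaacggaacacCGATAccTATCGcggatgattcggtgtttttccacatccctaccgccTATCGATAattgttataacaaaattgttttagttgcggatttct
RpL32/CG7943: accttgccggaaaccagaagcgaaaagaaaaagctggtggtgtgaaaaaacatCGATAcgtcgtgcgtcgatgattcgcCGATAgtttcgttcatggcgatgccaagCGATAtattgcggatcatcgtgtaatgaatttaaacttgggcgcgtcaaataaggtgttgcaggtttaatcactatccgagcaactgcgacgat
Sec61alpha/Daxx: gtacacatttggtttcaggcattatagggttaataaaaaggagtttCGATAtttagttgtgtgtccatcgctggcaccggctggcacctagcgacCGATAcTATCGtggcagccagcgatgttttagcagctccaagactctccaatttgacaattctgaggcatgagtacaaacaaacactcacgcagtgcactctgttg

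MED7 is a subunit of the Mediator of transcription and Cap-H2 one of condensin, which compacts chromosomes. The MED7/Cap-H2 summit lay between the starts, 107 bp from the MED7 start and 171 bp from the Cap-H2 start, and the centre of its DRE core 78.5 bp to the right of the summit. At Rab30/Caper, a membrane traffic GTPase and an RNA-binding protein, the window holds both starts, with the summit 59 bp from the first and 56 bp from the second, and 4 short cores. The summit of Fibp/Deaf1 was 47 bp from the start of Deaf1, a transcription factor, and 12.5 bp from the DRE core. The GstO1/foi summit was 28 bp upstream of foi, a zinc transporter, and its core lay 60.5 bp to the right, past the foi start. The signal of these peaks, the authors' own value per peak, was 795 for MED7/Cap-H2 (398 in the separate list of replicate 1, 388 in that of replicate 2), 696 for Fibp/Deaf1 (343 and 342) and 665 for GstO1/foi (368 and 291). The replicates were close at MED7/Cap-H2 and Fibp/Deaf1, and replicate 1 was higher at GstO1/foi. The windows of RpL32/CG7943 and Sec61alpha/Daxx each hold 3 short cores and no full core.

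A peak was found at 635 of the 1439 divergent pairs (44.1%, 41.6 to 46.7), and divergent genes carried peaks more often than other genes. Counted by gene, 1305 of 2961 genes in pairs (44.1%, 42.3 to 45.9) had a summit within 500 bp of their own start, against 1110 of 8788 genes in no pair (12.6%, 11.95 to 13.3). The share over all 11749 autosomal protein-coding genes was 20.6%. Replicate 1's own list gave 38.9% of genes in pairs and 10.7% of genes in no pair, against 17.8% of all genes. Replicate 2's own list gave 38.2% of genes in pairs and 10.3% of genes in no pair, against 17.3% of all genes. The intervals of paired and unpaired genes did not overlap in any of the 3 lists. Those of paired genes, here and below, take both genes of a pair as separate counts, so they are too narrow. Since 1 summit can lie within 500 bp of both starts, a pair can be counted for both of its genes. The count by pairs avoids this, but a pair has the windows of both starts and an unpaired gene that of its own alone. The share of pairs is thus not directly comparable with that of unpaired genes. The window of a paired gene also covers its partner's start, and the part of this in the difference was not tested.

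**Figure D1:**
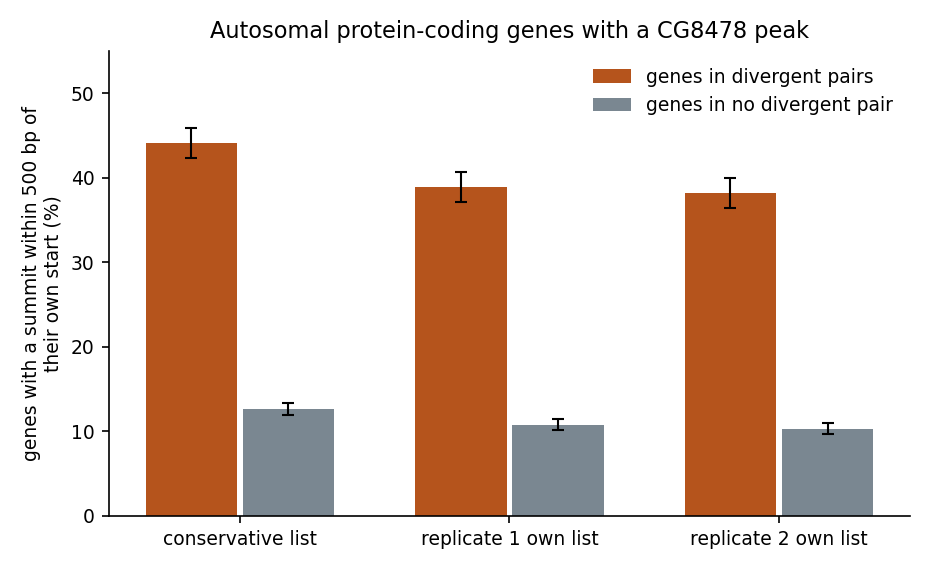
Share of autosomal protein-coding genes with a CG8478 summit within 500 bp of their own start, for genes in divergent pairs (left bar) and genes in no divergent pair (right bar), in the list made from both replicates and in each replicate's own list. Error bars are 95% Wilson intervals; the paired genes stand at 44.1%, 38.9% and 38.2%, and the unpaired genes at 12.6%, 10.7% and 10.3%.

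Among the pairs without a peak were 42 copies of His4/His3 and His2B/His2A in the tandem histone repeat on 2L, near-identical copies whose missing peaks are uncertain, since how the authors placed reads in repeats is not given in the sources used here. Without them 635 of 1397 pairs had a peak (45.5%, 42.9 to 48.1), and 45.4% of genes in pairs. The share varied by arm, and the intervals of 2R and 3L did not overlap. On 2R it was 159 of 312 pairs (51.0%, 45.4 to 56.5), on 3R 205 of 437 (46.9%, 42.3 to 51.6), on 2L 143 of 346 (41.3%, 36.3 to 46.6; 143 of 304, 47.0%, without the histone repeat) and on 3L 128 of 339 (37.8%, 32.8 to 43.0). Chromosome 4 has 5 such pairs and none had a peak, with an interval up to 43.4%. The share varied little with the spacing of the starts. Pairs 1 to 100 bp apart had a peak in 43.4% (37.9 to 49.1), pairs over 100 and up to 200 bp apart in 40.4% (34.6 to 46.4; 47.1% without the histone repeat), pairs over 200 and up to 300 bp apart in 43.3% (38.4 to 48.2) and pairs over 300 and up to 500 bp apart in 47.3% (42.9 to 51.8). These 4 intervals overlap. The median spacing was 253 bp for pairs with a peak and 239.5 bp for pairs without one (248.5 bp without the histone repeat).

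Most pairs with a peak had a single one. There were 574 pairs with 1 peak, 58 with 2 and 3 with 3, and no peak fell to more than 1 pair. In the 58 pairs with 2 peaks the summits were a median of 205 bp apart (199 to 862), 48 of the 58 intervals overlapped each other, and in 39 pairs 1 summit lay nearer each start. CNBP/CG9849 had entries of signal 779, 107 and 8.74, CG4049/CG3253 of 533 and 84.9, Sec20/dgrn of 513 and 32.5, and NSD/BOD1 of 510 and 264. CNBP is a nucleic acid-binding zinc finger protein, Sec20 a membrane fusion factor, dgrn a ubiquitin ligase and NSD a histone methyltransferase. In all, 51 of the 699 peaks (7.30%) had an interval that overlapped a higher entry. Their median signal was 32.5, against 173 for the other 648, and all 14 divergent-promoter peaks with a signal under 10 were among them.

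Most of these peaks overlapped peaks in both replicates' own lists. The authors made the list from the same libraries and thresholded it on reproducibility. Overlap with the own lists is thus partly set by the choice of list and is not an independent repeat. Of the 699, 531 (76.0%, 72.7 to 79.0) overlapped entries of both own lists by at least 1 bp, 52 those of replicate 1 alone, 43 those of replicate 2 alone and 73 (10.4%) neither. The share in both was 67.2% (64.4 to 70.0) for single-promoter peaks and 37.7% (33.7 to 41.9) for the remaining autosomal peaks. Among the 531, the own summits of the replicates were a median of 22 bp apart with a standard deviation of 47.5 bp for the signed offset, 83.2% were within 50 bp, and 5 were over 200 bp apart. The log2 ratio of the own signals, replicate 2 over replicate 1, had a median of -0.18 and a standard deviation of 0.47. These ratios are between 2 lists with no stated common scale, and 2 overlapping entries can match the same own peak, as at Sec20/dgrn.

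**Figure D2:**
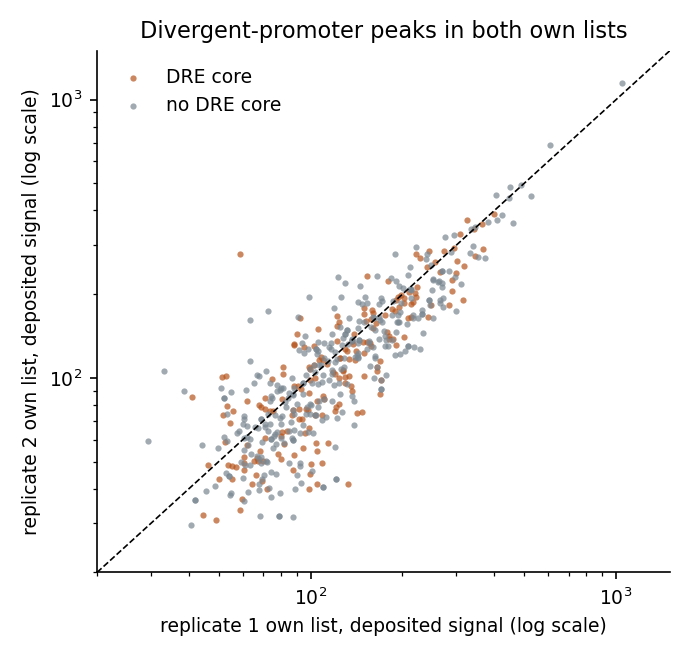
Deposited signal of 531 divergent-promoter peaks that overlap a peak in both own lists, replicate 1 on the x axis and replicate 2 on the y axis, both on log scales. Each point is 1 peak, coloured by a DRE core within 100 bp of the summit; the points follow the dashed line of equal values, with a standard deviation of 0.47 in the log2 ratio.

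Signal at divergent promoters was somewhat higher than at single promoters and well above that of the other peaks. The signal is the authors' own value per peak, with no stated scale, so it was compared only within a list. The median was 163 (quartiles 96.3 to 283) at divergent promoters, 141 (78.4 to 257) at single promoters and 78.6 (59.5 to 127) elsewhere. The own list of replicate 1 gave medians of 97.0, 86.7 and 62.3 in the same order, and that of replicate 2 gave 91.5, 86.3 and 51.1. The quartile ranges of divergent and single promoters overlapped over most of their length, and their ratio of medians ran from 1.16 in the list of both replicates through 1.12 in replicate 1 to 1.06 in replicate 2. Divergent promoters made up 6 of the 20 highest autosomal peaks and 31 of the 100 highest, close to their 30.0% of the list, while 63.1% of them lay above its median.

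The 12 highest divergent-promoter peaks were also in both own lists. The TAF1C-like/MESK2 peak, first of all autosomal peaks, had a signal of 2181 in the list of both replicates, 1043 in replicate 1 and 1151 in replicate 2. TAF1C-like is named after a human factor of RNA polymerase I. RpL32/CG7943, at a protein of the large ribosomal subunit, had 1288, with 606 and 686 in the replicates, and Sec61alpha/Daxx, at the pore protein of the endoplasmic reticulum translocon, had 1003, with 489 and 495. Mic26-27/CG5916, at a gene of the complex that shapes the inner mitochondrial membrane, had 990, with 529 and 451. Replicate 2 was the higher of the replicates at the first 3 of these and replicate 1 at the last. The next were RabX1/mi with 933, PRL-1/EndoGI with 885, CG15356/CG15362 with 857, janA/Sry-alpha+Sry-beta with 826, wmd/levy with 811, MED7/Cap-H2 with 795, CNBP/CG9849 with 779 and CG12213/GC1 with 742. RabX1 belongs to the Rab GTPases of membrane traffic, PRL-1 is a phosphatase, EndoGI an inhibitor of a nuclease, levy a subunit of cytochrome c oxidase and GC1 a mitochondrial glutamate carrier. The own signals of these 8 ran from 380.4 to 461 in replicate 1 and from 361.5 to 486 in replicate 2. Of these 12 peaks, MED7/Cap-H2 alone had the full DRE core within 100 bp of its summit, and all had at least 2 short cores there.

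Summits lay mainly between the starts and close to one of them. Of the 699, 525 (75.1%, 71.8 to 78.2) lay between the 2 starts, with 73.2% in the own list of replicate 1 and 78.1% in that of replicate 2. The nearer start was a median of 51 bp away (51 bp in replicate 1, 46 bp in replicate 2), 346 summits (49.5%) were within 50 bp of it and 552 (79.0%) within 100 bp. At single promoters the median was 55.5 bp and 73.5% were within 100 bp, and the summit was upstream of the start in 73.6% of them, against 74.1% at divergent promoters for the nearer start. These values are close, but the measures are not alike. A pair offers 2 starts to be near and a single promoter 1. A summit that lies between the 2 starts, and on neither, is upstream of the nearer one by construction.

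No preference for a strand was detectable. The plus-strand gene was nearer in 370 cases (52.9%, 49.2 to 56.6), the minus-strand gene in 326 and neither in 3. The plus-strand share was 53.7% in replicate 1 and 53.9% in replicate 2, with intervals that include 50%. The own summits of both replicates were nearer the same start in 445 of 531 peaks (83.8%), and in 297 of 341 (87.1%) where the starts were over 200 bp apart.

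Most summits were nearer a start than the midpoint between the starts, but the share depended on the spacing. Of the 699, 227 (32.5%, 29.1 to 36.03) were nearer the midpoint than either start. The 174 summits outside the starts cannot be, by construction. Between starts over 200 bp apart, 90 of 372 summits (24.2%, 20.1 to 28.8) lay in the central part of the gap, when it is cut in 3 equal parts. By spacing, the share nearer the midpoint was 30.4% for starts 1 to 100 bp apart, 40.0% over 100 and up to 200 bp, 48.3% over 200 and up to 300 bp and 19.2% over 300 bp. The last class was also the lowest in each replicate, at 20% and 19.5%. Its summits stayed a median of 58 bp from the nearer start, against 67.5 bp for starts over 200 and up to 300 bp apart. Of the summits between the starts alone, 42 of 75, 48 of 78, 87 of 149 and 50 of 223 were nearer the midpoint, from the closest class to the widest. That is most of them in each class up to 300 bp and a minority over 300 bp. An offset of 22 bp between replicates is a large part of a gap under 100 bp, so positions within the closest pairs are coarse.

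**Figure D3:**
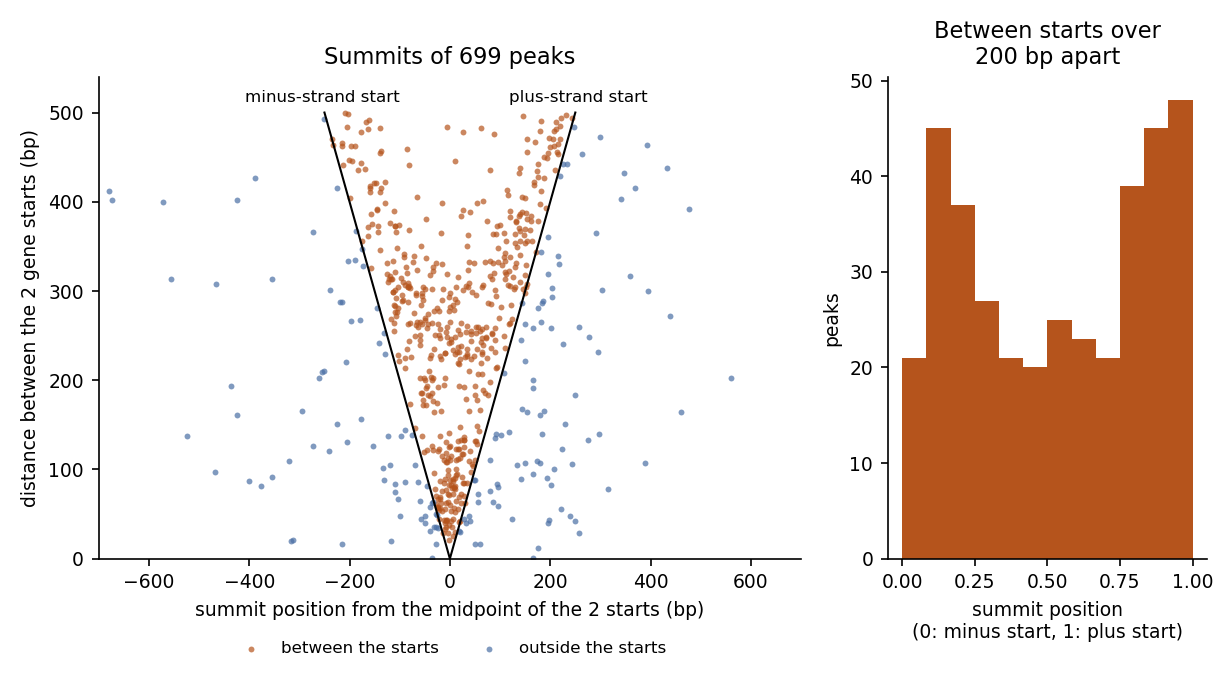
Left, position of the summits relative to the midpoint of the 2 gene starts in bp (x axis) against the distance between the starts in bp (y axis); black lines mark the starts, and points between them are orange and points outside them blue. Right, number of peaks by relative position for the 372 summits that lie between starts over 200 bp apart, with fewer in the central of 3 equal parts (24.2%) than near either start.

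The 174 summits outside the starts lay past the minus-strand start in 78 cases and past the plus-strand start in 96, a median of 71 bp into the gene. For 56 of them (32.2%) another annotated transcript start of the genes was nearer. Their median signal was 111, against 183 for summits between the starts, but 33 of the 174 (19.0%) overlapped a higher entry, against 18 of 525 (3.43%). Without such entries the medians were 132 over 141 summits outside and 189 over 507 between the starts. Snap24/CG8478, the pair that holds the gene of the tagged protein, has starts 500 bp apart and is just inside the spacing limit. Its summit lay 41 bp from the start of Snap24, a membrane fusion protein, and 459 bp from that of CG8478, with a signal of 318 and own signals of 179 in replicate 1 and 131 in replicate 2. The other pair just inside was wts/dj-1beta, starts 498 bp apart and signal 369, and just outside were Meics/Nxf3+ssp2 at 501 bp and signal 143 and CG33199+CG8229/Tom7 at 509 bp and signal 385. For the summit limit, rno/mri at 474 bp (signal 69.0) and Pss/Nubp2 at 473 bp (61.3) were just inside, and RpLP0-like/14-3-3zeta at 521 bp (199) and ATPsyngamma/yata at 530 bp (14.4) just outside.

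The DRE core was more frequent at divergent promoters with a peak than at those without one. It lay within 100 bp of the summit in 224 of 699 divergent-promoter peaks (32.0%, 28.7 to 35.6) and 337 of 1090 single-promoter peaks (30.9%, 28.2 to 33.7), whose intervals overlap. Over all autosomal protein-coding starts the share within 100 bp was 7.07%. In the same window at the midpoint of the starts, 131 of 635 pairs with a peak (20.6%, 17.7 to 23.9) had the core, against 20 of 804 pairs without one (2.49%, 1.62 to 3.81). Searched between the starts and 100 bp past them, the core was in 302 pairs, of which 256 (84.8%, 80.3 to 88.4) had a peak, and of the 1137 pairs without it there 379 (33.3%, 30.7 to 36.1) had one. The core is thus neither in every bound pair nor in bound pairs alone, as 46 pairs held it without a peak.

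Shorter forms of the motif were more common. ATCGATA, which lacks 1 end base of the core, was within 100 bp of 56.2% of divergent-promoter summits (52.5 to 59.9), 52.2% of single-promoter summits and 13.8% of all starts. Around the midpoint of the starts it was in 36.7% of pairs with a peak and 7.59% of pairs without one. The short core CGATA was at 84.4% (81.5 to 86.9) of divergent-promoter summits, 77.1% (74.5 to 79.5) of single-promoter summits and 38.1% of all starts. Around midpoints it was in 63.0% of pairs with a peak (59.2 to 66.7) and 32.1% of pairs without one (29.0 to 35.4). The 3 forms nest, so every core is counted again in each shorter form. Copies of the short core went with signal: the median signal was 79.6 over 109 peaks with none, 127 over 137 with 1, 172 over 191 with 2 and 225 over 262 with 3 or more. The own signals had the same order, at 85.7, 94.6, 104 and 127 in replicate 1 and 70.3, 89.3, 97.7 and 121 in replicate 2. The quartile ranges of neighbouring classes overlapped. Peaks with the full core had a median signal of 196, and those with no full core but the form lacking 1 base had 189. The own signals had the reverse order, at 109 and 116 in replicate 1 and 103 and 118 in replicate 2.

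**Figure D4:**
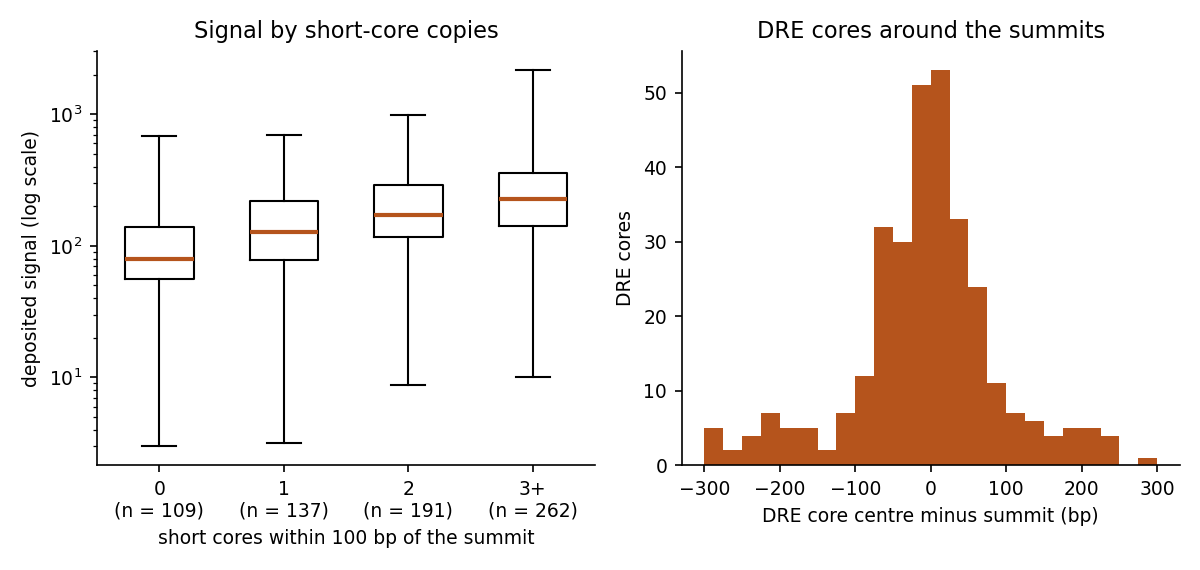
Left, deposited signal (log scale) of 699 divergent-promoter peaks by the number of short cores within 100 bp of the summit; boxes span the quartiles, orange lines are medians (79.6, 127, 172 and 225) and whiskers reach the lowest and highest value. Right, distance from each summit to the centre of each DRE core within 300 bp in bins of 25 bp, with 78.1% of the 315 distances within 100 bp.

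Most DRE cores found within 300 bp of a summit were within 100 bp of it. A core near several summits was counted for each. Of 315 such distances, 167 (53.0%) were within 50 bp and 246 (78.1%) within 100 bp. In the 226 peaks with a core centred within 100 bp of the summit, the nearest core was a median of 28.5 bp from it. That limit is part of the choice, so the values for these nearest cores describe close cores only. Of those nearest cores 177 (78.3%) lay between the starts, a median of 27 bp from the nearer start. In 100 pairs with 1 core and 1 summit between starts over 200 bp apart, both were on the same side of the midpoint in 81 (81.0%, 72.2 to 87.5), a median of 41 bp apart.

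Other promoter motifs differed little between pairs with and without a peak when the windows of 100 bp on either side were centred alike, on the midpoint. Such a window stops short of starts more than about 200 bp apart, as in all 486 pairs over 300 bp apart. Motifs near those starts were not counted, so the comparison does not cover whole promoters. Motif 1 (GTCACACT) was in 5.83% of pairs with a peak and 5.47% of pairs without one, Ohler motif 6 (GGTATTT) in 7.09% and 9.20%, Ohler motif 7 (CAACACT) in 6.46% and 7.46%, the E-box CAGCTG in 15.0% and 14.3%, and the Zelda motif CAGGTAG in 0.945% and 0.622%. The TATA box letters TATAAA were in 40.6% (36.9 to 44.5) of pairs with a peak and 44.4% (41.0 to 47.9) of pairs without one, intervals that overlap. The GAGA repeat GAGAGAG was in 0.945% (0.434 to 2.05) of pairs with a peak and 3.98% (2.83 to 5.56) of pairs without one, but in 1.31% (0.714 to 2.40) of the pairs without a peak once the histone repeat was left out. The GAGA difference thus rested on the histone copies. Median GC content in these windows was 32.3% with a peak and 33.8% without one.

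Around summits, divergent and single promoters differed in the TATA box and GAGA letters. The TATA box letters were in 30.9% (27.6 to 34.4) of divergent-promoter windows and 23.7% (21.2 to 26.3) of single-promoter windows, against 30.2% of all starts. The GAGA repeat was in 1.14% (0.581 to 2.24) of divergent-promoter windows and 3.39% (2.47 to 4.64) of single-promoter windows, against 3.75% of all starts. Motif 1 was in 7.73% and 7.98%, Ohler motif 6 in 6.29% and 7.98%, Ohler motif 7 in 8.44% and 7.52%, the E-box in 16.7% and 15.4% and the Zelda motif in 0.715% and 0.459%, in the same order of sets, against 5.65%, 7.25%, 5.48%, 14.04% and 0.996% of all starts. Median GC content was 36.8% at divergent promoters and 38.8% at single promoters, and its part in these shares was not tested. All motifs were searched on both strands.

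**Figure D5:**
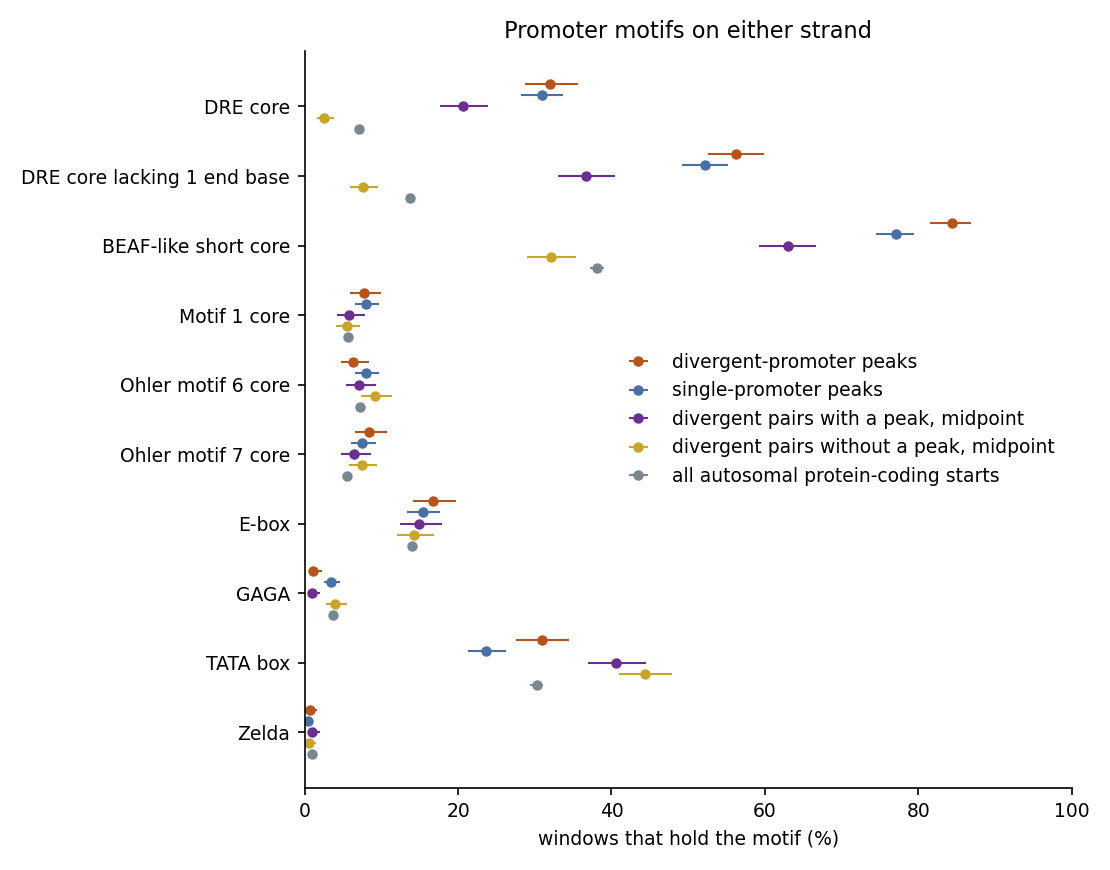
Share of windows of 100 bp on either side of a centre that hold each motif on either strand, with 95% Wilson intervals, for divergent-promoter peaks and single-promoter peaks (centred on the summit), divergent pairs with and without a peak (centred on the midpoint) and all autosomal protein-coding starts. For the full DRE core the shares are 32.0% and 30.9% around summits, 20.6% and 2.49% around midpoints with and without a peak, and 7.07% of all starts.

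Paired genes had a summit more often than unpaired ones with and without the core at their own start, and at each number of short cores there. Cores were counted within 100 bp of a gene's own start, but summits within 500 bp of it. Cores farther away, near the partner's start, were thus left out of a paired gene's count. Their part in the differences was not tested. Among genes with the DRE core within 100 bp of their own start, 343 of 398 in pairs (86.2%, 82.4 to 89.2) and 310 of 433 in no pair (71.6%, 67.2 to 75.6) had a summit. Among genes without it, the shares were 37.5% (35.7 to 39.4) in pairs and 9.58% (8.96 to 10.2) in no pair. With no short core at the start they were 24.4% in pairs and 4.76% in no pair, with 1 they were 46.3% and 11.3%, with 2 they were 65.4% and 37.8%, and with 3 or more they were 85.2% and 72.2%. Each replicate's own list gave the same order, with 83.2% and 70.5% in replicate 1 and 76.1% and 64.1% in replicate 2 for 3 or more short cores. The core itself was within 100 bp of the start in 13.4% of genes in pairs and 4.93% of genes in no pair.

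Genes of general cell functions had a summit more often than other genes, in pairs and out of them. The 14 lists of such functions, matched by gene symbol, hold 375 genes in pairs, of which 202 (53.9%, 48.8 to 58.8) had a summit at their own start, and 413 genes in no pair, of which 145 (35.1%, 30.7 to 39.8) had one. Among genes in none of these lists the shares were 42.7% (40.8 to 44.6) in pairs and 11.5% (10.9 to 12.2) in no pair. Counting a gene as having a peak when its pair has one, as below, the share over all paired genes was 44.3%. Unpaired genes were counted by their own start throughout. Pairs with 1 gene in a list had a peak in 51.9% (46.6 to 57.2), pairs with both in 15 of 32 (46.9%, 30.9 to 63.6) and pairs with neither in 41.6% (38.7 to 44.6).

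Genes of protein synthesis were often in divergent pairs, where 25.2% of all autosomal protein-coding genes lie. Of 32 paired genes in the cytoplasmic ribosomal protein list 18 had a peak (56.2%), against 20 of 46 unpaired ones (43.5%). The 18 include RpL7-like and RpLP0-like, which are named for their likeness to ribosomal proteins. The highest peak among them was that of RpL32/CG7943. Mitochondrial ribosomal protein genes lay in pairs in 45 of 62 cases, and 19 of the 45 had a peak (42.2%), against 7 of 17 unpaired ones (41.2%). Their highest peaks were Tudor-SN/mRpL17 at 651 (341 in replicate 1, 297 in replicate 2) and mRpL39/Prosbeta2 at 515 (266 and 241). Translation factors had a peak in 10 of 16 paired genes, led by eIF3a/CG1074 at 560 and Su(var)3-9+eIF2gamma/Set at 535, where eIF2gamma shares its start with a histone methyltransferase gene. Of 18 paired aminoacyl-tRNA synthetase genes, whose enzymes load tRNAs, 8 had a peak, led by TrpRS/Vps16A at 484 and GlnRS/RIOK2 at 468. The ribosomal lists thus stood near the share of all paired genes or above it, and small lists have wide intervals.

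The splicing list and the ubiquitin and SUMO list had the highest shares among lists of over 20 paired genes. Splicing genes had a peak in 18 of 24 (75%), against 5 of 11 unpaired ones, with U4-U6-60K/CG7564 at 643 and SmE/CG34132 at 496; both encode parts of the spliceosome. In the ubiquitin and SUMO list 19 of 26 had one (73.1%), against 12 of 24 unpaired ones. That list also holds autophagy genes, and Atg3, Atg4b, Atg6, Atg9, Atg12, Atg17 and Atg18a are among the 19. Its highest peaks were Cul4/udd at 567, at a cullin scaffold of ubiquitin ligases, and Usp5/BtbVII at 446. Proteasome genes had one in 10 of 17, led by mRpL39/Prosbeta2 and Prosalpha7/CG1671 (412), both subunits of the core particle. Chaperone genes had one in 9 of 14, led by CCT1/tHMG1 at 489 and Pif1A+Pif1B/CCT7 at 333, at subunits of the cytosolic chaperonin. The CCT7 peak had no short core within 100 bp of its summit.

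Genes of membranes, energy and the nucleus followed. In the vesicle traffic list 32 of 58 genes had a peak (55.2%), led by Sec61alpha/Daxx and Rab30/Caper (705, with 324 in replicate 1 and 369 in replicate 2). That list is mixed, as it also holds the translocon gene Sec61alpha and Vha genes of the vacuolar ATPase. Oxidative phosphorylation genes had one in 13 of 27, led by ND-SGDH/RhoGAP68F at 430 and COX7A/Arl2 at 392, at subunits of respiratory complexes I and IV. Both paired genes of the mitochondrial import and membrane list had one, Mic26-27 and Tim10, Tim10 being in CG42497+Tim10/CG42496+Ppcdc at 76.5, a peak in neither own list. Transcription machinery genes had one in 21 of 49 (42.9%), with elm/MED27 at 514 after MED7. Cell cycle and replication genes had one in 16 of 31 (51.6%), against 23 of 43 unpaired ones (53.5%), with CG3281/aurA at 587, at the mitotic Aurora A kinase. In the DNA repair list 8 of 18 had one, with LSm1/Xpd at 267 and ND-23/spn-E at 238. The 8 include spn-E and spn-F, which are not DNA repair genes, so the share is that of a mixed list. The unpaired shares were lower in vesicle traffic (32.4%), oxidative phosphorylation (22.4%) and transcription machinery (21.2%), while in the cell cycle list paired and unpaired genes had nearly the same share.

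Genes of differentiation were few in divergent pairs. Of 30 developmental regulators 1 lay in a pair and it had no peak. Of 114 cuticle protein genes 3 did, with no peak, and of 199 chemosensory genes 21 did, 2 of them with a peak: CG17768+LSm-4/Ir31a at 189 and Ir60e/CG13585 at 138. Among unpaired genes 3 of 29 developmental regulators (10.3%) had a peak, near the 12.6% of all unpaired genes, and none of the 111 cuticle and 178 chemosensory genes did. The Ir31a summit lay 17 bp from the start of the CG17768 and LSm-4 side and 345 bp from that of Ir31a, while that of Ir60e/CG13585 lay 44 bp from the CG13585 start and 278 bp from Ir60e. In both the partner's start was the nearer one.

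Pairs of genes known only by a CG number had fewer peaks. With no such gene 335 of 688 pairs had a peak (48.7%, 45.0 to 52.4), with 1 such gene 249 of 559 (44.5%, 40.5 to 48.7) and with 2 such genes 51 of 192 (26.6%, 20.8 to 33.2). Where 1 gene of a pair was in a function list, the summit was nearer that gene in 93 of 190 peaks (48.9%, 41.9 to 56.0), and in 58 of 103 (56.3%, 46.7 to 65.5) where the starts were over 200 bp apart. Both intervals include 50%.

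Both genes of a pair seldom belonged to the same list. There were 8 such pairs, and of the 6 without a peak 5 were pairs of chemosensory or cuticle genes and the other was Vha55/Snx3, named after its values were seen. The 2 with a peak were Bub3/Cap-D2, at a spindle checkpoint gene and a condensin subunit, with a signal of 230, and Taf10b/Taf10, both subunits of general transcription complexes, with 122. Among pairs with genes in different lists, the highest after MED7/Cap-H2 were mRpL39/Prosbeta2, TrpRS/Vps16A, COX7A/Arl2, Sec3/COX7B at 350, ATPsynCF6/Sec13 at 305, Vps39/eIF1A at 281 and LSm1/Xpd. Dref/RpL13, named after its values were seen since Dref encodes the factor that binds the DRE, had entries of 132 and 2.99; the higher was in replicate 1's own list at 94.5 and not in replicate 2's.

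The 804 pairs without a peak in the list of both replicates seldom had one elsewhere: 24 had a summit in the own list of replicate 1, 19 in that of replicate 2 and 1 in both. The larger optimal list had a peak at 47 of them, and none at 35 of the 635 pairs with a peak in the list of both replicates. The closest pairs among them with a gene in a function list were mRpL23/CG9004 with starts 24 bp apart, CycC/UQCR-C1 at 26 bp, CG2021/mRpL46 at 28 bp and mRpL51/Uba4 at 31 bp. They encode mitochondrial ribosomal proteins, a cyclin of the Mediator and a subunit of respiratory complex III, as well as the tRNA-modifying enzyme Uba4. None of the 4 held a DRE core between its starts or within 100 bp of them.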

How the data were processed

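Anti-GFP ChIP-seq peak lists of 2 biological replicates were used, in build dm6 per the file headers. Which aligner and caller made them is not given in the sources used here. Each peak has a signal from the authors' caller and a summit offset, both as deposited; the list made from both replicates is the authors' conservative one, and their larger list is called optimal. The authors thresholded the lists on the irreproducible discovery rate; the −log10 of that rate is deposited in the ranked list, which also holds both replicates' input signals.

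Repeated intervals were merged, keeping the higher signal. A summit is the start plus the offset. Genes came from Ensembl release 115, motif windows from the Release 6 sequence. Peaks on the X, Y and scaffolds were left out. Shares have 95% Wilson intervals and no test was run, since there is 1 group. The values in each replicate's own list show the spread between replicates. The labels' replicates are biological. The join was tested on simulated data. Members, lists and motifs were chosen with earlier results of these data known. Named pairs are those of the 12 highest peaks, the 2 highest of each list, pairs with both genes in lists (up to 8), with 2 or more peaks (up to 4), those beside each threshold, those whose sequence is shown, and the 4 closest without a peak; Bub3/Cap-D2, Taf10b/Taf10, Vha55/Snx3 and Dref/RpL13 were added after their values were seen. Of the pairs this rule names, 1 is not reported here. Alternatives were the optimal list, the upper 50% by signal, each own list, other windows, spacings and start definitions. The tools were pandas 2.3.3, NumPy 2.4.6 and SciPy 1.17.1 under Python 3.11.15, with matplotlib 3.10.9 for plots.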

Additional observations from a re-analysis of the deposited data

How the results depend on the processing

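No paired analysis was possible because there is 1 group only. Pairs with a peak were 44.1% (30.1% with the upper 50% of peaks by signal; 38.2% to 38.7% in 1 replicate's own list). Their share of autosomal peaks, 30.0%, was 37.9% with the upper 50%, 14.4% at a spacing of at most 250 bp, 39.2% at 1000 bp, 27.6% with canonical transcript starts, and 31.7% to 33.0% in the own lists. The signal ratio to single promoters, 1.16, was 1.23 in the optimal list, 1.01 with the upper 50%, and 1.06 to 1.12 in the own lists. Summits between the starts, 75.1%, were 83.4% with the upper 50%, 64.9% at 250 bp spacing, 78.2% without entries that overlap a higher one, and 73.2% to 78.1% in the own lists. Summits nearer the midpoint, 32.5%, were 39.0% with the upper 50%, 37.8% at 250 bp spacing, 26.6% at 1000 bp, and 34.5% to 34.9% in the own lists. The DRE core, 32.0%, was 37.6% with the upper 50%, 22.0% within 50 bp of the summit, 36.8% within 200 bp, 19.7% around the midpoint, and 33.0% to 33.2% in the own lists. Overlap with both own lists, 76.0%, was 55.8% at reciprocal overlap of 50%, 69.4% for summits within 100 bp and 97.7% with the upper 50%. The plus-strand share stayed between 50% and 53.9%. The optimal list gave 45.0% of pairs, with 47 gained and 35 lost, and leaving out the histone repeat 45.5%. Canonical starts and leaving out overlapping entries or the histone repeat were chosen after seeing the data. The cause of these shifts was not tested, beyond fewer or more pairs or peaks entering by construction. Read depth is unknown, so a missing peak is not absence of binding.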
